A study of Mus musculus with 6 samples.

Results

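The proteasome genes of the mouse retina were followed across arrays of 2 compounds, SH-42 and SH-80. They were the genes whose symbol begins with Psma, Psmb, Psmc, Psmd or Psme, without Psmb8 and Psmb9, and the brightest probe stood for each gene. The scanner files used here name probes by accession, so symbols were taken from RefSeq through those accessions. The rule found 43 genes with 53 probes among 39429 probes. Of these, 41 passed the filter on dim probes and were tested among 24106 features. The 2 that did not pass were Psma8, the alpha subunit of testis, and Psmb11, the beta subunit of the thymus, neither of which was well above background on any array in either channel. All 41 tested genes were well above background in both channels on all 6 arrays. Psmc3ip, a recombination cofactor, and Psme3ip1, a partner protein of Psme3, carry the prefix without being subunits, which leaves 39 genes for subunits, their activators and their assembly helpers.

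The proteasome is the protease complex that degrades proteins tagged with ubiquitin in the cytosol and nucleus. Its core particle stacks rings of alpha subunits, which form the gate, on rings of beta subunits, some of which cut the substrate inside. A regulatory particle of ATPases and other subunits binds, unfolds and feeds ubiquitinated proteins, and alternative caps, the activators, open the gate in its place. In retina it takes part in the turnover of phototransduction proteins. Interferon replaces the cutting subunits with inducible forms that shape peptides for antigen presentation.

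Adult male C57BL/6 mice, 12 per group, received SH-42, SH-80 or phosphate-buffered saline (PBS, the control), each given as 1 µM in the labels, in the vitreous of the right eye. Retinas were taken at day 7 and pooled 4 to a tube. Each of the 6 arrays (3 for SH-42, 3 for SH-80) carried RNA labelled as from a compound in Cy3 and RNA labelled control in Cy5, with no dye exchange. With 12 control mice and 4 retinas to a tube, the control group would yield 3 pools for the 6 arrays, so the comparisons may share control RNA. The p-values therefore measure the spread between arrays, which may be technical. SH-42 and SH-80 are known here only by code name.

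Every ratio is given as log2 of Cy3 over Cy5, that is, by the labels, compound over control. The authors' deposited value table runs the opposite way, Cy5 over Cy3, so the direction against control is not settled. Higher and lower refer to Cy3 relative to Cy5. Were the compound in Cy5, each sign would turn, also in SH-42 minus SH-80. Dye and treatment cannot be told apart in a ratio to control. The tissue label was checked on 15 retina markers, of which 14 were well above background on 6 arrays in both channels, the photoreceptor factor Nrl among them. Lhx1, a horizontal cell factor, was so on 6 arrays in Cy5 and on 0 in Cy3. SH-42 replicate 1 stood apart: across all features, which are not independent, its r with each other array lay between -0.16 and 0.163, while the 10 pairs without it lay between 0.47 and 0.867. SH-42 replicates 1 and 2 lay on slide 1 and the other 4 arrays on slide 2.

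Most proteasome genes lay close to a ratio of 1 on the SH-42 arrays and somewhat above it on the SH-80 arrays, and 1 gene, Psme3, lay far below it on all 6. The median log2 ratio of the 41 genes was 0.013 for SH-42, against -0.034 over all features, and 0.11 for SH-80, against -0.031. For SH-42, 21 of 41 genes had a positive ratio, beside 43.0% of all features. The test called 1 gene as lower (adjusted p under 0.05, limma with Benjamini-Hochberg adjustment over all 24106 features). That stood beside 0.602% of all features called in either direction, 0.0581% higher and 0.543% lower. For SH-80, 30 had a positive ratio, beside 44.4% of all features. Of the 41 genes, 6 passed as higher and 1 as lower, beside 14.7% of all features called, 4.62% higher and 10.1% lower. The share of the genes called for SH-80 was 17.1%, near the background, while the called-higher share of 14.6% stood beside that 4.62%. Among the 18241 features well above background in both channels on all arrays, 4.51% were called higher for SH-80. At an unadjusted p under 0.05 the counts were 8 genes for SH-42, beside 23.5% of all features, and 19 for SH-80, beside 35.5%. The ratio was positive on all 3 SH-42 arrays for 12 genes (19% of all features) and on all 3 SH-80 arrays for 23 (29.5%). In bulk retina, fewer cells of a type and less RNA per cell cannot be told apart.

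The sign of these small shifts depended on how the dyes were balanced. Centring each array on its median in place of loess moved the median of all features to -0.245 for SH-42 and -0.148 for SH-80, and that of the proteasome genes to -0.495 and -0.187. Under it, 34 genes were called lower and 0 higher for SH-42, beside 37.6% of all features called in either direction, and 2 lower and 0 higher for SH-80, beside 15.2%. A positive ratio was then left for 0 of 41 genes for SH-42 and 4 for SH-80, so nearly every positive estimate given with loess turned its sign. Relative to the all-feature median, 3 of 41 genes were then above it for SH-42 and 15 for SH-80, against 23 and 33 with loess. Psme3 was lower under either way of balancing. No gene was called for SH-80 (0) once any 1 SH-80 array was left out, and 18 were (15 higher, 3 lower, beside 38.9% of all features) without SH-42 replicate 1.

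**Figure D1:**
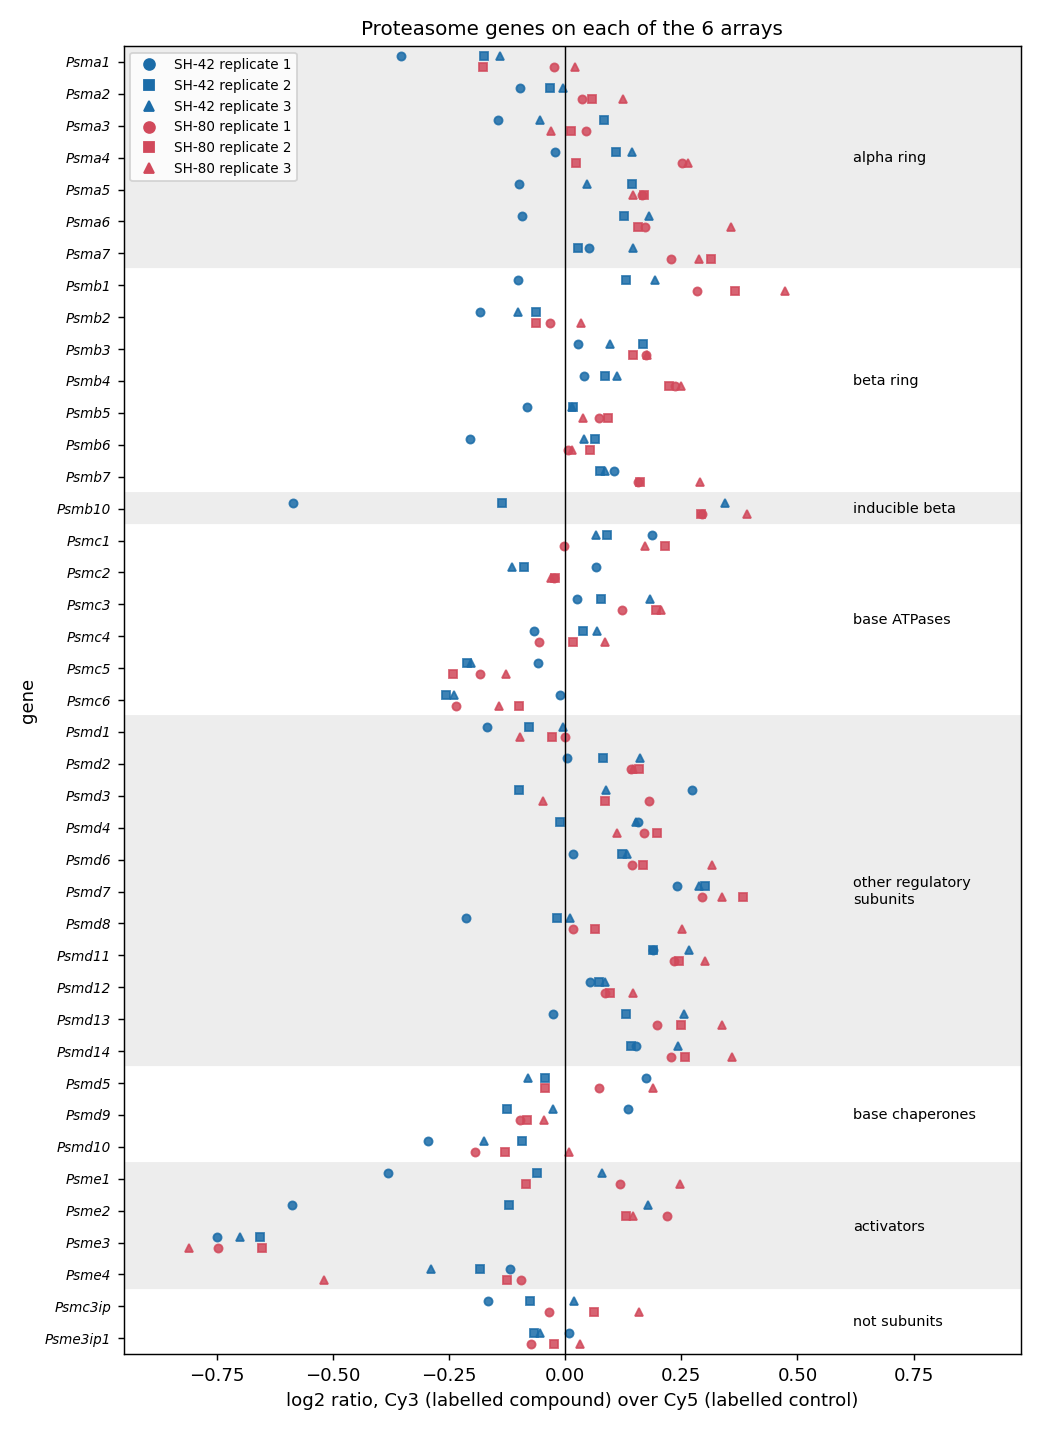
Log2 ratio of Cy3 (labelled compound) over Cy5 (labelled control) for each of the 41 tested proteasome genes, grouped by role, with 1 point per array (SH-42 blue, SH-80 red; circle, square and triangle for replicates 1 to 3). Psme3 lies between -0.81 and -0.65 on all 6 arrays, and Psmb10, Psme1 and Psme2 spread widest on the SH-42 arrays.

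In the alpha ring, which forms the gate of the core particle, 1 of 7 genes passed for SH-80 as higher and 0 for SH-42. Of all features, 4.62% were called higher for SH-80 and 0.0581% for SH-42. The 7 alpha genes had a median log2 ratio of 0.031 for SH-42 and 0.161 for SH-80, with 4 and 6 positive. Psma7, the alpha gene that passed, had ratios of 0.052, 0.027 and 0.145 on the SH-42 arrays and 0.228, 0.314 and 0.289 on the SH-80 arrays. All 3 SH-80 arrays lay above all 3 SH-42 arrays. Its estimate was 0.28 ± 0.0535 for SH-80 (SE, n = 3 arrays, limma adjusted p = 0.0312, positive on 3 of 3 arrays) and 0.075 ± 0.0535 for SH-42 (adjusted p = 0.414). Under median centring the estimates were -0.042 for SH-80 and -0.495 for SH-42.

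Psma1, another alpha subunit, had ratios of -0.354, -0.175 and -0.14 on the SH-42 arrays and -0.024, -0.176 and 0.021 on the SH-80 arrays. The SH-42 estimate of -0.22 ± 0.069 was among the 5 smallest p of that comparison, with an adjusted p of 0.157 (limma, n = 3 arrays, negative on 3 of 3). Psma2, also of the alpha ring, had -0.097, -0.033 and -0.0045 on the SH-42 arrays and 0.036, 0.058 and 0.125 on the SH-80 arrays, so the signs were opposite with small sizes. The other alpha genes, Psma3 to Psma6, passed in neither comparison.

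In the beta ring, 2 of 7 constitutive genes passed as higher for SH-80 and 0 for SH-42, with medians of 0.165 and 0.074. The shares of all features called higher were 4.62% for SH-80 and 0.0581% for SH-42. Psmb1, a structural beta subunit, had ratios of -0.102, 0.13 and 0.194 on the SH-42 arrays and 0.285, 0.366 and 0.472 on the SH-80 arrays. Its SH-80 values exceeded every SH-42 value, and SH-42 replicate 1 was the only negative array. The SH-80 estimate was 0.37 ± 0.076 (limma adjusted p = 0.0329, n = 3 arrays, positive on 3 of 3), and it stayed positive at 0.086 under median centring. Psmb4, a structural beta subunit needed for assembly of the ring, had 0.04, 0.087 and 0.111 for SH-42 and 0.236, 0.224 and 0.25 for SH-80. Its groups did not overlap, and the SH-80 estimate of 0.24 ± 0.049 (adjusted p = 0.0337) became -0.126 under median centring.

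None (0) of the 3 constitutive cutting subunits passed for either compound. Psmb5, which carries the chymotrypsin-like activity and is the main target of proteasome inhibitor drugs, had ratios of -0.082, 0.018 and 0.015 on the SH-42 arrays and 0.074, 0.093 and 0.037 on the SH-80 arrays. Its estimates were -0.016 (95% interval -0.141 to 0.109) for SH-42 and 0.068 (-0.057 to 0.193) for SH-80. A dimmer probe of the same gene had the opposite sign for SH-42, 0.179, and 0.302 for SH-80. Psmb6, of caspase-like activity, had estimates of -0.034 for SH-42 and 0.026 for SH-80. Psmb7, of trypsin-like activity, had 0.203 ± 0.054 for SH-80 with a limma adjusted p of 0.0533, just short of the threshold, and -0.089 under median centring.

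The inducible beta subunit Psmb10, which replaces Psmb7 in the immunoproteasome, had the widest spread of ratios among the beta genes. Its ratios were -0.586, -0.136 and 0.343 on the SH-42 arrays and 0.295, 0.293 and 0.392 on the SH-80 arrays. The 3 SH-80 arrays lay close together, while the SH-42 arrays reached from well below 0 to above it. The estimates were -0.13 ± 0.16 for SH-42 (limma adjusted p = 0.638) and 0.33 ± 0.16 for SH-80 (adjusted p = 0.196), n = 3 arrays each. Both share 1 standard error, because the fit takes 1 spread per gene over all 6 arrays. The SD of the ratios was 0.46 on the SH-42 arrays and 0.057 on the SH-80 arrays. For SH-80 the gene was called in 3 of the 21 alternatives run, with a limma adjusted p as low as 0.0093. Among the 21, the SH-80 arrays alone and slide 2 alone gave the same fit for SH-80 but are counted apart. This holds for every SH-80 count over 21 alternatives given here. Without SH-42 replicate 1, the SH-42 estimate was 0.104.

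That spread lay in the channel labelled control. The normalized log2 signal of Psmb10 in Cy3 lay between 12.69 and 12.81 on the SH-42 arrays and between 12.68 and 12.77 on the SH-80 arrays. In Cy5 it was 13.39, 12.82 and 12.37 on the SH-42 arrays and 12.4, 12.39 and 12.37 on the SH-80 arrays. The highest Cy5 signal was that of SH-42 replicate 1. Psmb8 and Psmb9, the inducible cutting subunits left out by the rule, were also lowest on SH-42 replicate 1 and highest on SH-42 replicate 3 among the SH-42 arrays, with -1.158, -0.119 and 1.028 on SH-42 replicates 1 to 3 for Psmb8 and -1.182, -0.011 and 0.65 for Psmb9. Neither passed in any comparison.

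The activators differed among themselves. Psme1 and Psme2 build the interferon-inducible cap of the core particle. Psme1 had ratios of -0.38, -0.061 and 0.078 on the SH-42 arrays and 0.117, -0.083 and 0.247 on the SH-80 arrays. Psme2 had -0.588, -0.122 and 0.178 on the SH-42 arrays and 0.22, 0.132 and 0.146 on the SH-80 arrays. For both genes SH-42 replicate 1 was the lowest of 6, and their Cy5 signals spanned 0.478 and 0.682 log2 units over the 6 arrays, against 0.17 and 0.223 in Cy3. Their estimates did not pass for either compound: -0.12 ± 0.11 and -0.18 ± 0.14 for SH-42, and 0.094 ± 0.11 and 0.17 ± 0.14 for SH-80.

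Psme3, which builds the activator cap of the nucleus and promotes degradation without ubiquitin, was the gene with the lowest ratio of the 41 for either compound. Its ratios were -0.75, -0.658 and -0.701 on the SH-42 arrays and -0.748, -0.652 and -0.81 on the SH-80 arrays. All 6 arrays lay within a narrow band, and the groups overlapped. Its normalized log2 signal averaged 10.83 ± 0.19 in Cy3 against 11.53 ± 0.24 in Cy5 on the SH-42 arrays, and 10.74 ± 0.088 in Cy3 against 11.48 ± 0.016 in Cy5 on the SH-80 arrays (SD, n = 3 arrays). The estimates were -0.70 ± 0.056 for SH-42 (limma adjusted p = 0.0291) and -0.74 ± 0.056 for SH-80 (adjusted p = 0.015), negative on 3 of 3 arrays each. Cy3 was thus 1.63-fold lower than Cy5 for SH-42 and 1.67-fold lower for SH-80.

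The sign of Psme3 held under every alternative run, with estimates from -1.12 to -0.61, and its call did not: the adjusted p was 0.374 for SH-42 with the SH-42 arrays alone and 0.346 for SH-80 with slide as a fixed block. It rests on 1 probe. SH-42 minus SH-80 was 0.034 (95% interval -0.158 to 0.226) for this gene (limma adjusted p = 0.864). Psme4, the activator linked to histone degradation, had -0.119, -0.183 and -0.289 for SH-42 and -0.096, -0.125 and -0.518 for SH-80. All 6 values were negative, and neither estimate passed (adjusted p = 0.26 and 0.12).

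**Figure D2:**
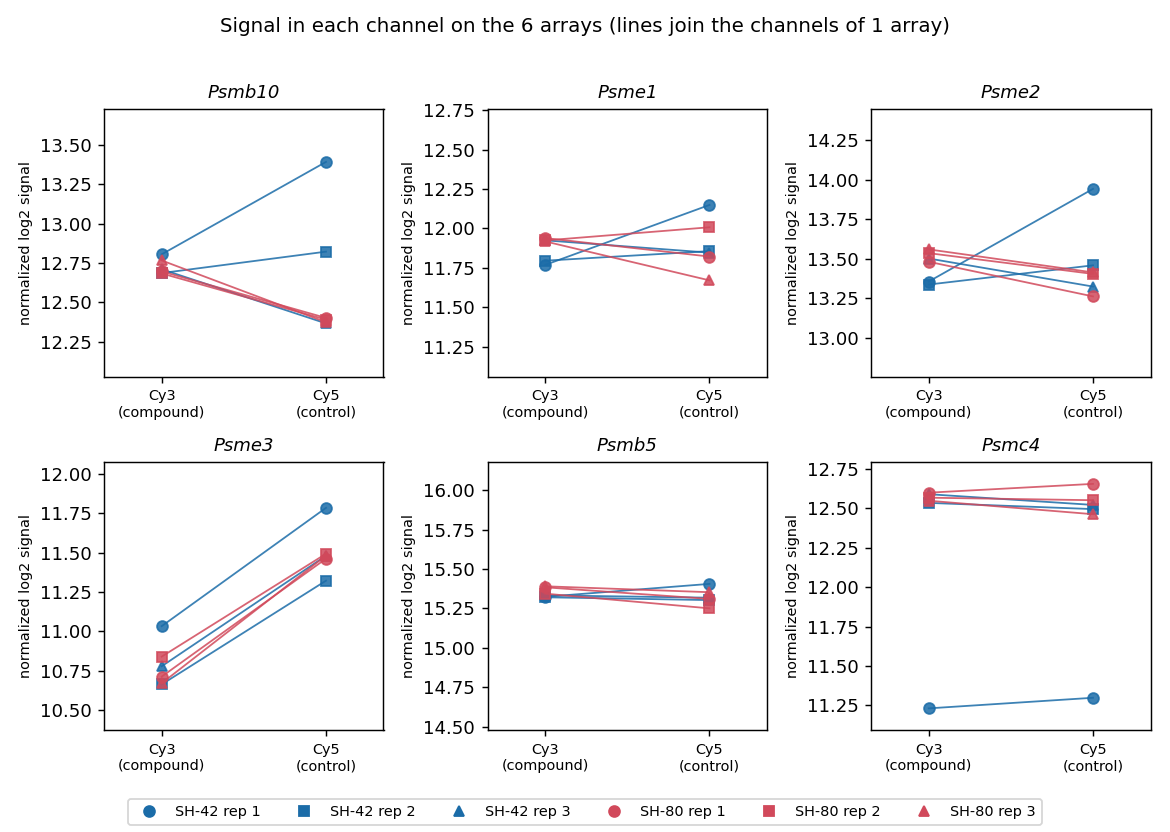
Normalized log2 signal of 6 proteasome genes in Cy3 (labelled compound) and Cy5 (labelled control), with a line joining the channels of each array (SH-42 blue, SH-80 red); each panel spans the same height of 1.7 log2 units. Psmb10 stays between 12.68 and 12.81 in Cy3 and spans 1.02 log2 units in Cy5, Psme3 is lower in Cy3 on every array, and Psmc4 is low in both channels on SH-42 replicate 1.

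Promoter windows are shown for Psma7, called for SH-80, for the interferon-inducible genes Psmb10 and Psme1, and for Psme3. The signal of Psmb10 and Psme1 spread more over the arrays in Cy5 than in Cy3. By SD, so did that of 34 of 41 genes, Psme3 among them, and of 78.6% of all features. RefSeq on GRCm38.p6 gave windows of 300 bases (250 before and 50 after the start) for 36 of the 43 genes, 40 windows in all. They were searched on both strands for TGACNNNGC or TGAGNNNGC, the letters bound by the transcription factors Nfe2l1 and Nfe2l2, and for GAAA followed after NN by a further GAAA, the letters bound by interferon regulatory factors. The first was in 42.5% of the proteasome windows and 27.8% of all 32851 windows, with a median GC content of 58.2% and 52.7%. The second was in 10.0% of the proteasome windows (Psmb3, Psmd4, Psmd9 and Psme1), against 3.44% of all. The sequences run 5′ to 3′ with matches in capitals: Psma7 at chr2:180042415-180042714 (minus strand), Psmb10 at chr8:105938343-105938642 (minus strand), Psme1 at chr14:55578244-55578543 (plus strand) and Psme3 at chr11:101315963-101316262 (plus strand).
Psma7: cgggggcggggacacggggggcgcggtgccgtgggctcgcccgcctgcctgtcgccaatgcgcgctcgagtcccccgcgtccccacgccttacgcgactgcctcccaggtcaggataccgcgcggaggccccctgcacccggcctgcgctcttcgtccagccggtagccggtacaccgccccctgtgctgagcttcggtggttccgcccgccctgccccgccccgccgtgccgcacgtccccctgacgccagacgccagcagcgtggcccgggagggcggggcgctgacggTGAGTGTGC
Psmb10: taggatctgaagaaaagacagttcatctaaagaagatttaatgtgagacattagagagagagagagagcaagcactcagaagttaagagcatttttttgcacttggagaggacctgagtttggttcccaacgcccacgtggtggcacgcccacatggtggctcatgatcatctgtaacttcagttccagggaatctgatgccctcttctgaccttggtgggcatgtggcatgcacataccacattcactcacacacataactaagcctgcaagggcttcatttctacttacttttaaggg
Psme1: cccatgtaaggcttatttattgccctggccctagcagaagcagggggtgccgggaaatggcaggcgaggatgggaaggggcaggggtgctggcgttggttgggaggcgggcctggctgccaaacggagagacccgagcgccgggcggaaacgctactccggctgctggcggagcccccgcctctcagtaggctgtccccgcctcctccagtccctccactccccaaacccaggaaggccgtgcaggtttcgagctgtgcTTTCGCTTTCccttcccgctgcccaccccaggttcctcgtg
Psme3: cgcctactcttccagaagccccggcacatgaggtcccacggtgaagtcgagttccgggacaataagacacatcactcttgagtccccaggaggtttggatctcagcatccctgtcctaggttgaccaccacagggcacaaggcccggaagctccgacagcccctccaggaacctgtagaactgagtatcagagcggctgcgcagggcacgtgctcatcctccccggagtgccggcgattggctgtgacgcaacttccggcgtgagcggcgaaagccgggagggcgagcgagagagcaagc
Psma7 held 1 match of the first kind, at the 3′ end of the window. Psme1 held 1 match of the second kind, on the opposite strand. Psmb10 and Psme3 held none (0) of these letters, which says nothing of the factors. Of the 4 windows of genes called higher for SH-80 (Psma7, Psmb4, Psmd11 and Psmd14), 1 held the first motif, while Psmd7 and Psmb1 had no window here.

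The ATPases of the regulatory particle, which unfold substrates, had no gene past the threshold for either compound (0 of 6 each). Their median log2 ratio was -0.016 for SH-42 and -0.0054 for SH-80. Psmc5 and Psmc6 were negative on all 6 arrays: Psmc5 had -0.058, -0.211 and -0.202 for SH-42 and -0.183, -0.241 and -0.128 for SH-80. Psmc3 was positive on all 6, with estimates of 0.095 ± 0.056 for SH-42 and 0.174 ± 0.056 for SH-80 (limma adjusted p = 0.0814), which under median centring were -0.582 and -0.214. Psmc4 stood out by its signal and not by its ratio. It had 11.23 in Cy3 and 11.3 in Cy5 on SH-42 replicate 1, against at least 12.46 in either channel on the other 5 arrays, while its ratio stayed between -0.067 and 0.085 on all 6.

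Among the other subunits of the regulatory particle, 3 of 11 genes passed as higher for SH-80 and 0 for SH-42, with medians of 0.16 and 0.092. Beside them, 4.62% of all features were called higher for SH-80 and 0.0581% for SH-42. The 3 genes belong to the lid, the part that removes ubiquitin. Psmd7, the partner of the deubiquitinase Psmd14, had ratios of 0.241, 0.301 and 0.289 on the SH-42 arrays and 0.296, 0.382 and 0.338 on the SH-80 arrays. All 6 arrays were positive and the groups overlapped. Its estimates were 0.28 ± 0.0505 for SH-42 (limma adjusted p = 0.0904) and 0.34 ± 0.0505 for SH-80 (adjusted p = 0.0265), and under median centring they were -0.198 and 0.054.

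Psmd14, the deubiquitinase that removes ubiquitin chains as a substrate enters, had ratios of 0.153, 0.142 and 0.244 on the SH-42 arrays and 0.228, 0.258 and 0.359 on the SH-80 arrays. Psmd11, a structural lid subunit, had 0.189, 0.19 and 0.267 for SH-42 and 0.234, 0.246 and 0.301 for SH-80. For both genes all 6 arrays were positive and the groups overlapped. Psmd14 reached 0.28 ± 0.0555 for SH-80 (adjusted p = 0.0322) and 0.18 ± 0.0555 for SH-42 (adjusted p = 0.157), and Psmd11 0.26 ± 0.051 (adjusted p = 0.0317) and 0.22 ± 0.051 (adjusted p = 0.132). Under median centring, the SH-80 estimates were 0.049 for Psmd14 and -0.0033 for Psmd11.

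Of the other lid genes, Psmd13 (0.26 ± 0.07) and Psmd6 (0.21 ± 0.06) lay just short of the threshold for SH-80 (limma adjusted p = 0.0543 and 0.0637). Under median centring their estimates were -0.013 and -0.078. The lid genes Psmd3, Psmd8 and Psmd12 lay farther from the threshold, at 0.072, 0.111 and 0.11 for SH-80 (limma adjusted p = 0.582, 0.327 and 0.164). The base scaffold genes Psmd1 and Psmd2 had SH-80 estimates of -0.041 and 0.149, and the ubiquitin receptor Psmd4 had 0.16, none past the threshold. Under median centring Psmd2 had -0.154 and Psmd4 -0.185. The helpers that assemble the base, Psmd5, Psmd9 and Psmd10, had SH-80 estimates of 0.073, -0.075 and -0.105, and 0 of 3 passed for either compound. The prefix-sharing Psmc3ip and Psme3ip1 had estimates between -0.074 and 0.062, with 0 of 2 passing.

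**Figure D3:**
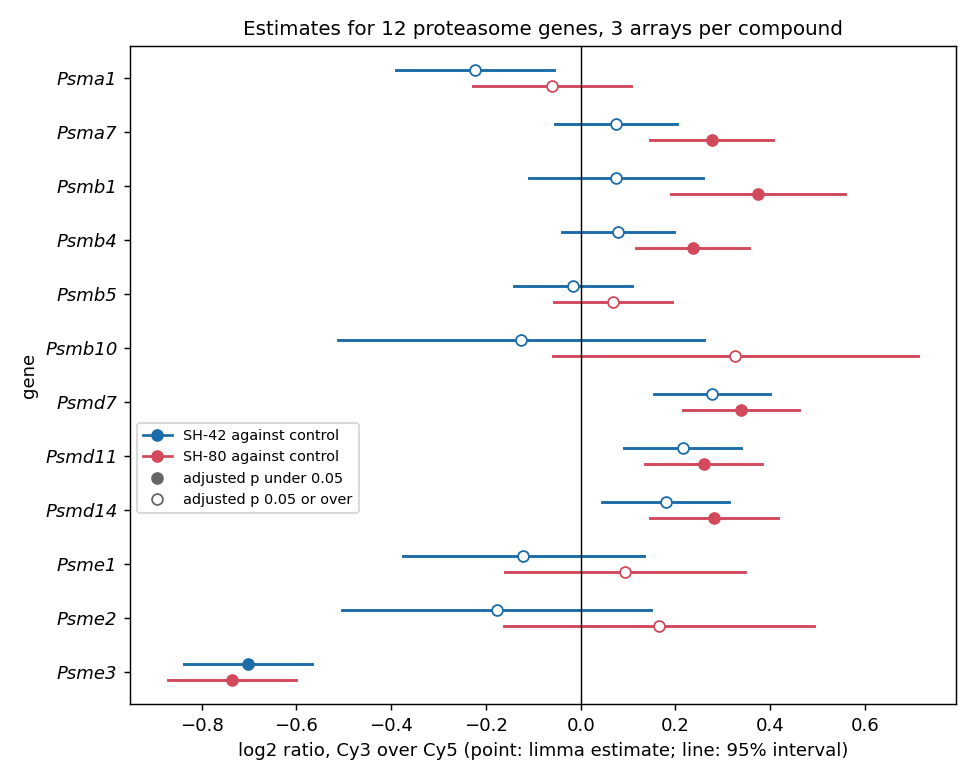
Limma estimates of the log2 ratio of Cy3 over Cy5 for 12 proteasome genes named by the rule, SH-42 (blue) above SH-80 (red). Lines are 95% intervals for 3 arrays per compound, with 1 spread per gene taken over all 6 arrays. Filled points have an adjusted p under 0.05. Psme3 lies at -0.70 and -0.74, and the 6 filled points at positive values are Psma7, Psmb1, Psmb4, Psmd7, Psmd11 and Psmd14 for SH-80.

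Set against each other, the SH-42 arrays had lower ratios than the SH-80 arrays for 36 of 41 genes, but no gene passed the test of the difference. SH-42 minus SH-80 was positive for the other 5, beside 53.6% of all features. With scaling between arrays it was positive for 13 of 41 genes, and with slide as a fixed block for 11. The median of SH-42 minus SH-80 was -0.079, against 0.015 over all features. In the limma fit 0 genes and 0% of all 24106 features were called, and 2 genes had an unadjusted p under 0.05, beside 3.9% of all features. These were Psmb1 (-0.30 ± 0.11, unadjusted p = 0.0298, adjusted p = 0.691) and Psma7 (-0.20 ± 0.076, unadjusted p = 0.0355, adjusted p = 0.691). Psmb4 differed by -0.157 (95% interval -0.325 to 0.010), Psmb10 by -0.453 (-0.998 to 0.093) and Psme2 by -0.343 (-0.805 to 0.119). The interval of Psmb5 was -0.261 to 0.092 around -0.085, and that of Psme1 was -0.574 to 0.145 around -0.214. Since the 2 sets of arrays may share control RNA, the 2 comparisons with control are set side by side only.

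For 11 of 41 genes all 3 SH-42 arrays lay below all 3 SH-80 arrays, beside 5.43% of all features, and for 0 genes they lay above, beside 8.08%. The 11 were Psma2, Psma5, Psma7, Psmb1, Psmb2, Psmb4, Psmb5, Psmb7, Psmd6, Psmd8 and Psmd12, that is 3 of the alpha ring, 5 of the constitutive beta ring and 3 of the regulatory particle. The count was 12 under median centring (7.83% of all features), 10 in the deposited value table (4.93%) and 13 without SH-42 replicate 1 (9.96%). On slide 2 alone, where SH-42 has 1 array, 17 genes lay below the SH-80 arrays (21.8%) and 2 above (27.2%), and the median difference was -0.043.

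The arrays within a compound differed as well. The median ratio of the 41 genes was -0.027, 0.018 and 0.068 on SH-42 replicates 1 to 3 and 0.086, 0.086 and 0.146 on SH-80 replicates 1 to 3. SH-42 replicate 1 was the lowest of 6 arrays for 27 genes (65.9%, beside 30.5% of all features), and SH-80 replicate 3 was the highest for 23 (56.1%, beside 18.0%). The SD over the 6 arrays had a median of 0.041 log2 units in Cy3 and 0.083 in Cy5 for the proteasome genes, against 0.068 and 0.142 for all features. The Cy5 SD was the larger for 34 of 41 genes, beside 78.6% of all features. SH-42 replicate 1 had the highest Cy5 signal of 6 for 26 of 41 genes and the lowest for 7. The shares of all features were not computed for these counts, so they cannot be read as particular to the proteasome genes.

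Marker lists of other cells also varied between arrays, not all in the same order, and their part in the proteasome ratios was not tested. The interferon-response list (9 of 9 genes tested, 0 called for either compound) had a summed signal of 7958 to 8496 in Cy3 and of 13109, 11902 and 6487 in Cy5 on the SH-42 arrays, and of 8154 to 8309 in Cy3 and 6641 to 7470 in Cy5 on the SH-80 arrays. Among the SH-42 arrays its Cy5 sum, like the Cy5 signals of Psmb10 and Psme2, was highest on replicate 1 and lowest on replicate 3. The Cy5 sums of the microglia and macrophage, other leukocyte, pigment epithelium, muscle and red cell lists had that order too. Those of the lens, retina and cornea lists were lowest on replicate 1. The microglia and macrophage list (11 of 11, 0 called) had 25928 to 28383 in Cy3 and 86305, 19960 and 10537 in Cy5 for SH-42, and 26819 to 27368 in Cy3 and 11204 to 13298 in Cy5 for SH-80. The lens list (10 of 10) had 0 called for SH-42 and 8 higher for SH-80, beside 4.62% of all features called higher. Its sums for SH-42 were 387147 to 438440 in Cy3 and 94298, 274041 and 225739 in Cy5, lowest on replicate 1. For SH-80 they were 438565 to 499235 in Cy3 and 42212 to 167095 in Cy5.

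The retina list (15 of 15) had 0 called for SH-42 and 3 lower for SH-80, beside 10.1% of all features called lower. Its sums were 675180 to 766631 in Cy3 and 527088 to 753552 in Cy5 for SH-42. For SH-80 they were 689330 to 710370 in Cy3 and 778697 to 851759 in Cy5. For SH-80, 1 of 5 pigment epithelium genes was called higher (4.62% of all features) and 1 of 4 genes of other leukocytes lower (10.1%), with 0 called for SH-42. The muscle (8 tested), cornea (4) and red cell (3) lists had 0 called for either compound. Muscle sums in Cy5 reached 14975 on SH-42 replicate 1 and 18589 on SH-80 replicate 2, against at most 4627 and 4925 in Cy3. The cornea list had its highest Cy5 sum, 17752, on SH-80 replicate 2. That of the red cell list, 9934, lay on SH-80 replicate 3.

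Of 37 tested genes that work with the proteasome, 0 were called for SH-42, beside 0.602% of all features. For SH-80, 4 were called higher, beside 4.62% of all features, and 3 lower, beside 10.1%. The chaperones that assemble the core particle had 3 of 5 higher for SH-80: Psmg4 at 0.40 ± 0.061, Psmg1 at 0.26 ± 0.051 and Psmg3 at 0.25 ± 0.056 (limma adjusted p = 0.0267, 0.0317 and 0.0386), which became 0.164, -0.032 and 0.0014 under median centring. Psmg4 had ratios of 0.194, 0.243 and 0.311 on the SH-42 arrays and 0.361, 0.319 and 0.515 on the SH-80 arrays, with no overlap. Among the 7 shuttle and receptor genes for ubiquitinated cargo, the autophagy receptor Sqstm1 was higher for SH-80 (0.31 ± 0.076, adjusted p = 0.0447), but 0.077 with an adjusted p of 0.669 under median centring. It was called in 8 of the 21 alternatives run, and not with normexp offset 0, processed signals or the deposited value table. Ubqln1, which carries ubiquitinated proteins to the proteasome, was lower (-0.32 ± 0.068, adjusted p = 0.0355) and was called in 14 of 21 alternatives.

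Uba1, the enzyme that activates ubiquitin, was the 1 gene lower among 6 ubiquitin and ubiquitin-activating genes for SH-80 (-0.27 ± 0.063, adjusted p = 0.0423). It was -0.154 (adjusted p = 0.0906) with the mean of all probes and -0.618 under median centring, and was called in 10 of 21 alternatives. Its ratios were -0.02, -0.206 and -0.167 on the SH-42 arrays and -0.202, -0.24 and -0.361 on the SH-80 arrays. None (0) passed among the 4 genes of the transcription factors of proteasome genes and their processing, the 7 genes of the segregase Vcp and its cofactors, or the 6 proteasome-bound proteins named without the prefix. Nfe2l1, the factor that raises proteasome genes when proteolysis fails, had estimates of -0.084 ± 0.061 for SH-42 and -0.087 ± 0.061 for SH-80. These were the lowest of the 4 transcription genes, whose highest estimates were 0.221 for SH-42 and 0.409 for SH-80.

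**Figure D4:**
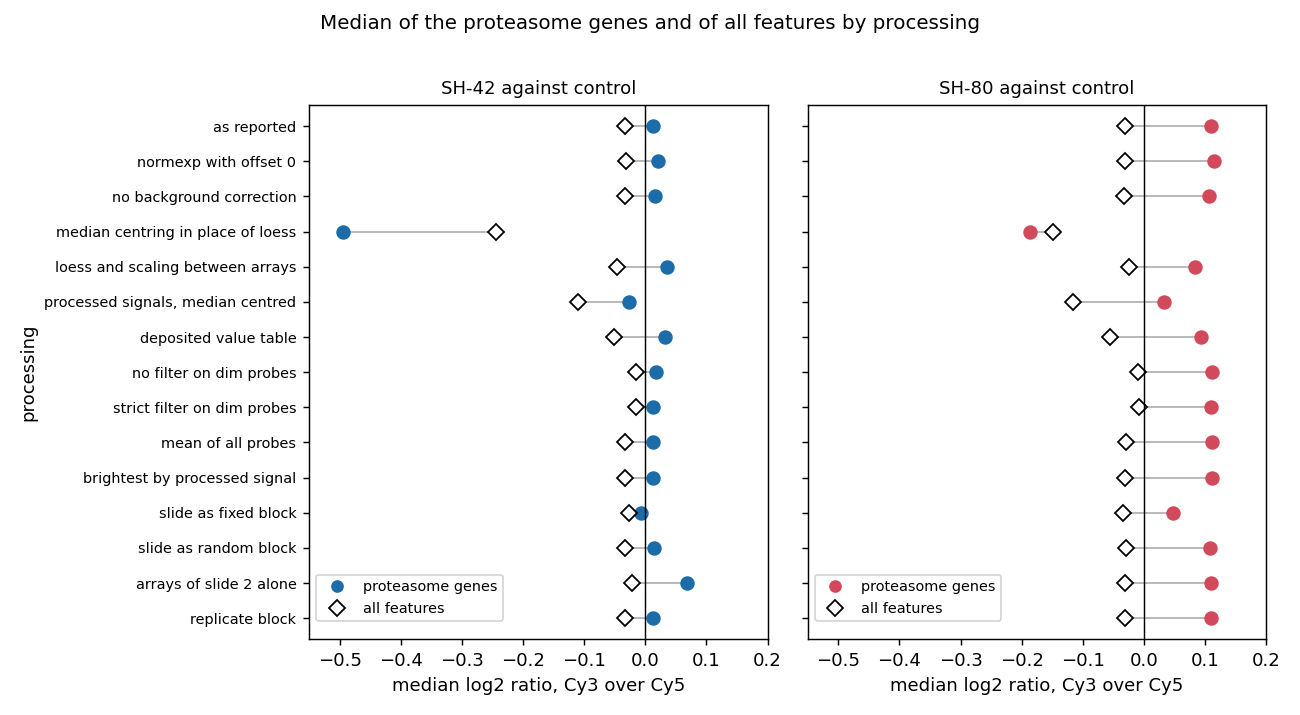
Median log2 ratio of Cy3 over Cy5 of the proteasome genes (filled circles) and of all features (open diamonds) under each way of processing, SH-42 on the left and SH-80 on the right. With loess and all 6 arrays, as reported, the proteasome medians are 0.013 and 0.11; with median centring in place of loess they are -0.495 and -0.187, below the all-feature medians of -0.245 and -0.148.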

How the data were processed

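Per the file headers, the deposited scanner files hold spot and local background intensity in Cy3 and Cy5, and a log10 ratio not used here, for 2-colour Agilent arrays (Feature Extraction 11.0.1.1 in the headers, 9.3.2.1 per the submitters' processing notes). The deposited value table holds log2 values of processed Cy5 over Cy3 plus a constant per array: 99.7% of values lay within 0.01 of it, with column medians of -0.0531, -0.0606 and -0.0612 (SH-42) and -0.0611, -0.0464 and -0.0754 (SH-80).

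From these, median intensities were background-corrected by normexp (offset 50) and normalized by loess within arrays, with control and flagged spots at weight 0. Probes were kept if 3 or more arrays showed them well above background in Cy3 or Cy5 (9944 failed). Symbols came from RefSeq accessions, for 26055 probes, since the files hold no gene name column, and the brightest probe stood for each gene. All features were fitted with lmFit and eBayes (limma 3.58.1, R 4.3.3), 1 coefficient per compound, two-sided, with Benjamini-Hochberg adjustment and a threshold of 0.05. Errors of estimates are standard errors. Channel signals were taken after loess and Aquantile. Precision is limited by the 3 arrays per compound. No pair of arrays held identical values (0), and 1 feature with no value on all arrays of a compound was left out. The fit was checked on simulated data.

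Named genes are those past the threshold in any comparison, the 5 of smallest p in each, and Psmb5, Psmb10, Psme1 and Psme2. Psma2, Psmb6, Psmb7, Psmc3, Psmc4, Psmc5, Psmd4, Psmd6, Psmd13, Psme4 and the others named with values were added after their values were seen. The genes and lists were chosen with earlier results of these data known. Some genes counted in the lists are not reported here by name.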

Additional observations from a re-analysis of the deposited data

Results flagged for a closer look

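Psma2, a subunit of the alpha ring, was singled out because all 3 SH-42 arrays had a negative ratio and all 3 SH-80 arrays a positive one. Its log2 ratio averaged -0.045 on the SH-42 arrays and 0.073 on the SH-80 arrays, and SH-42 minus SH-80 was -0.118 (95% interval -0.296 to 0.060). The difference did not pass the limma test (adjusted p = 0.691), and 1.5% of all features (361 of 24106) showed such opposite signs in either direction.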

How the results depend on the processing

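The number of proteasome genes called moved with the settings, as did the share of all features called, given in brackets. For SH-42 it was 1 as reported (0.602%), 0 with normexp offset 0 (0%), scaling between arrays (0.0166%), the arrays of that compound alone, slide as a fixed block or the replicate block (0% each), 2 with processed signals (18.1%), 3 with no background correction (13.4%) or the deposited value table (15.7%), and 34 with median centring (37.6%). Leaving out 1 array gave 0 to 1 (0% to 1.87%). For SH-80 it was 7 as reported (14.7%), 0 with scaling (2.78%), a fixed slide block or the replicate block (0% each), 2 with median centring (15.2%), and 17 with the SH-80 arrays alone or slide 2 alone (38.3%). Leaving out 1 array gave 0 to 18, the 18 without SH-42 replicate 1 (38.9%) and 0 without any 1 SH-80 array (0%). For SH-42 minus SH-80 it was 0 throughout. The deviations of same-numbered arrays had r of -0.153, -0.431 and 0.182, and those of differently numbered arrays had r between -0.302 and 0.345. With only 3 arrays per compound, these r cannot decide whether the numbers pair the arrays. With the replicate block 6 (SH-42), 14 (SH-80) and 1 (difference) of 41 genes had an unadjusted p under 0.05. The share of all features under that block is not given here. As reported, the counts were 8, 19 and 2, beside 23.5%, 35.5% and 3.9% of all features.

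Medians moved beyond the spread of the array medians to -0.495 (SH-42), -0.187 (SH-80) and -0.311 (difference) with median centring. For SH-80 they also did so to 0.032 with processed signals and to 0.047 with a fixed slide block. On slide 2 the SH-42 median was 0.068, which is that of SH-42 replicate 3, the only SH-42 array there. The 17 genes with SH-42 below SH-80 on slide 2, and the other counts of that kind, were added after seeing the data. With median centring 0 of 41 genes were positive for SH-42 (21 as reported) and 4 for SH-80 (30 as reported). Among the genes named by the rule, the sign turned for Psmd7 (-0.198), Psmd11 (-0.216) and Psmd14 (-0.178) for SH-42, and for Psma7 (-0.042), Psmb4 (-0.126), Psmb5 (-0.322), Psmd11 (-0.0033), Psme1 (-0.187) and Psme2 (-0.145) for SH-80. Psmb5 also turned for SH-42 to 0.0054 with scaling, 0.081 with the mean of all probes and 0.015 on slide 2, and for SH-80 to -0.0055 with processed signals. A fixed slide block turned Psmb10 (-0.026), Psme1 (-0.056) and Psme2 (-0.101) for SH-80, and a fixed slide block or slide 2 alone turned Psmb10 (0.017) and Psme2 (0.012) in the difference. Slide 2 alone turned Psmb10 (0.343), Psme1 (0.078) and Psme2 (0.178) for SH-42. Leaving out 1 array gave -0.361 to 0.104 for Psmb10, -0.033 to 0.016 for Psmb5, -0.220 to 0.0089 for Psme1 and -0.355 to 0.028 for Psme2 for SH-42, each highest without SH-42 replicate 1. The cause was not tested, except that the settings on 1 slide or without an array use fewer arrays. Of 10 genes with several probes, 3 differed in sign between probes for SH-42 and 2 for SH-80. All 41 genes were well above background in both channels on all arrays, yet no gene was called for SH-42 with normexp offset 0. Precision is limited by the 3 arrays per compound.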
